A study of Mus musculus with 19 samples.

Results

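The injury that remained in the mouse kidney after gavage with the probiotic L. casei Zhang was measured by setting 4 RNA libraries of the group labelled IRLacz against 5 libraries of the group labelled sham. These are 9 of the 19 libraries of the study. All mice were male C57BL/6, an inbred strain. IRLacz mice were gavaged for 4 weeks and were then subjected to ischemia-reperfusion, in which the blood flow of the kidney is stopped and restored, and the study's design text gives killing on day 5 after injury. Its abbreviation of the strain, Lac.z, matches the label IRLacz. Sham mice had no ischemia-reperfusion, and no gavage is given for them or for the 5 libraries labelled IR, which had the injury. Gavage and injury therefore cannot be told apart in IRLacz against sham, and a gavaged sham group was not analysed here. The 5 IR libraries give the level that the injury reached without a stated gavage, and 5 further libraries labelled IRLac entered only the shared estimate of the spread. The labels do not say that each library is 1 mouse, so p-values set each difference against the spread between libraries. That spread was pooled over all 19 libraries, and the fit gives no group a spread of its own. The time of day at which kidneys were taken is not given in the sources used here.

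Ischemia-reperfusion harms the proximal tubule most, because this segment makes its energy almost wholly by burning fatty acids in mitochondria and peroxisomes. Damaged tubule cells lose their transporters, switch on injury genes such as Havcr1 (kidney injury molecule) and Lcn2 (a secreted iron-scavenging protein), and re-enter the cell cycle, while macrophages enter and fibroblasts lay down collagen. Recovery is followed by the fall of these programs and by the return of transport and oxidation genes.

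A total of 13594 of 19287 entries had at least 1 FPKM (fragments scaled to transcript length and library depth) in at least 4 of the 19 libraries and were tested. Differences are given in log2(FPKM + 1), where adding 1 shrinks the differences of weakly expressed genes. An entry is called at a limma adjusted p under 0.05. FPKM totals were 545590 to 584798 per library. Sham libraries held 11988 to 12156 entries at 1 FPKM or more, IR libraries 13013 to 13181 and IRLacz libraries 12750 to 13283. The kidney label held: the proximal tubule transport list summed to 10690 to 11370 FPKM in the sham libraries. Sham libraries correlated at 0.9901 to 0.9929, IR libraries at 0.9816 to 0.9892 and IRLacz libraries at 0.9604 to 0.988, the widest span of these 3 groups.

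IRLacz replicate 1 stood apart. Of the 10276 entries called between IR and sham, 25.1% lay inside the range of the sham libraries in IRLacz replicate 1, against 11.8% in replicate 2, 8.6% in replicate 3 and 6.9% in replicate 4. The share was 2.8% to 6.5% in single IR libraries. These entries were chosen because the same IR libraries differed from sham, so the low IR share follows in part from that choice. Of 39 gene lists with at least 8 tested genes, the mean level of 29 was nearest to sham in IRLacz replicate 1, and that of 25 was farthest from sham in IRLacz replicate 4. Total calls between IRLacz and sham or IR, and the numbers in each class, are given with and without IRLacz replicate 1. Some list counts are too, while other counts are given with all libraries only.

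**Figure D1:**
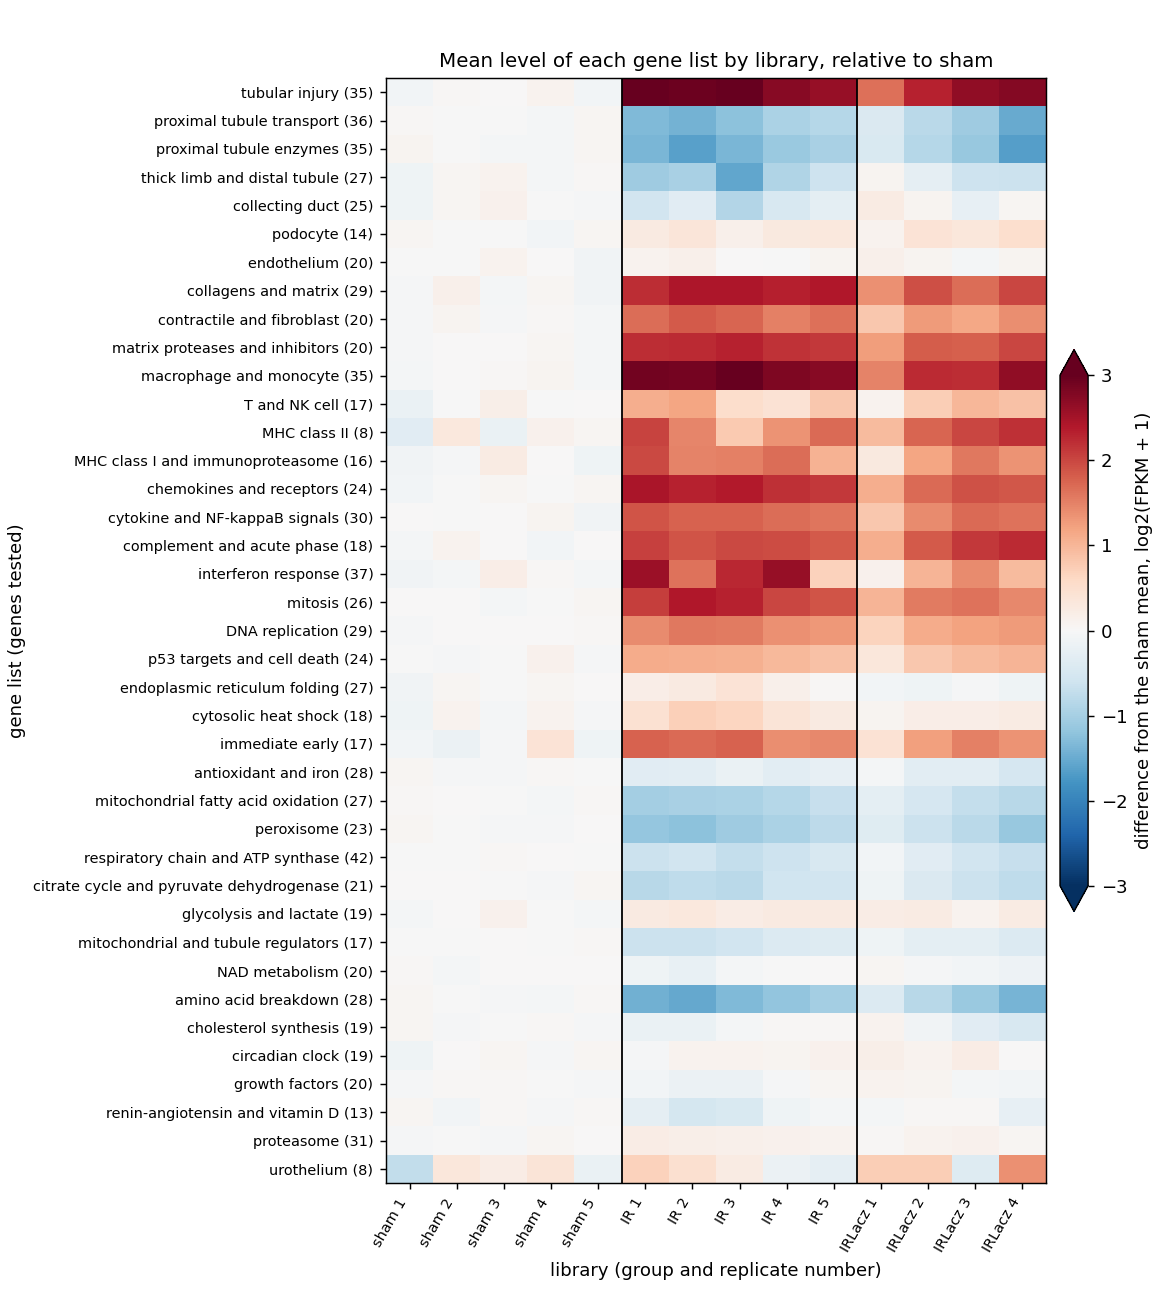
Mean level of 39 gene lists (rows, with the number of tested genes) in each sham, IR and IRLacz library (columns), as the difference from the mean of the sham libraries in log2(FPKM + 1). Red is above and blue below sham, and among the IRLacz libraries replicate 1 is nearest to sham and replicate 4 farthest for tubular injury (1.66 and 2.76), proximal tubule transport (-0.43 and -1.52) and amino acid breakdown (-0.41 and -1.39).

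IRLacz kidneys were far from the sham level. Of the 13594 entries, 9563 (70.3%) were called, 7729 (56.9%) higher and 1834 (13.5%) lower than in sham, and without IRLacz replicate 1 the number was 9983. IR against sham gave 10276 calls (75.6%), of which 7747 (57%) lay above and 2529 (18.6%) below sham. The libraries of IRLacz and sham did not overlap for 7496 entries (55.1%), with IRLacz above for 6134 (45.1%) and below for 1362 (10%). Both comparisons use the same sham libraries. The direct comparison of IRLacz with IR gave 1809 calls (13.3%), 733 (5.39%) higher and 1076 (7.92%) lower. That number was 1127 (656 higher and 471 lower) without IRLacz replicate 1 and 774 without IRLacz replicate 2. It was 1089 without IR replicate 1, 888 without IR replicate 2 and 606 without IR replicate 3.

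The median over all tested entries was 0.29 above sham in IRLacz and 0.29 above sham in IR, and scaling each library by the median ratio of its entries brought it to 0.009 and 0.011. That scaling put 4255 calls above sham and 4218 below it. Counts for a gene list are therefore to be read against 56.9% higher and 13.5% lower among all entries, and the counts under median-ratio scaling are given where they differ in kind.

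Each entry was placed by 3 comparisons. Still changed means called in IR and called in the same direction in IRLacz, both against sham. Returned means called in IR against sham, called the opposite way in IRLacz against IR, and not called in IRLacz against sham, with a 95% confidence interval inside a 1.5-fold change. Beyond means called in IRLacz against sham in the opposite direction to IR. An entry that differed from both was called in the same direction against sham and against IR, without a call in IR against sham. These classes are a description, since the comparisons share libraries. In all, 8556 entries (62.9%) were still changed, 6893 (50.7%) above and 1663 (12.2%) below sham. Of these 8556, 929 (10.9%, or 6.83% of all entries) were called back toward sham against IR, and 72 (0.53% of all entries) were called further from sham than IR. Another 412 (3.03%) had returned, 173 (1.27%) from a higher and 239 (1.76%) from a lower level in IR. Beyond sham were 13 entries (0.0956%), 10 on the high side (0.0736%) and 3 on the low side (0.0221%). A further 268 (1.97%) differed from both groups, 224 above (1.65%) and 44 below (0.324%). Without IRLacz replicate 1 the numbers were 8900 still changed, 229 returned, 15 beyond and 266 that differed from both. The returned entries numbered 148 without IR replicate 3. Many list counts against IR also moved when 1 of the 14 libraries was left out. The 929 called back are given with all libraries only. Members called back in the macrophage and monocyte list fell from 23 to 6 without IRLacz replicate 1 and to 5 without IR replicate 3. Under median-ratio scaling 5468 of the 8556 kept the class still changed, but only 83 of the 412, none of the 13 and 56 of the 268 kept theirs.

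**Figure D2:**
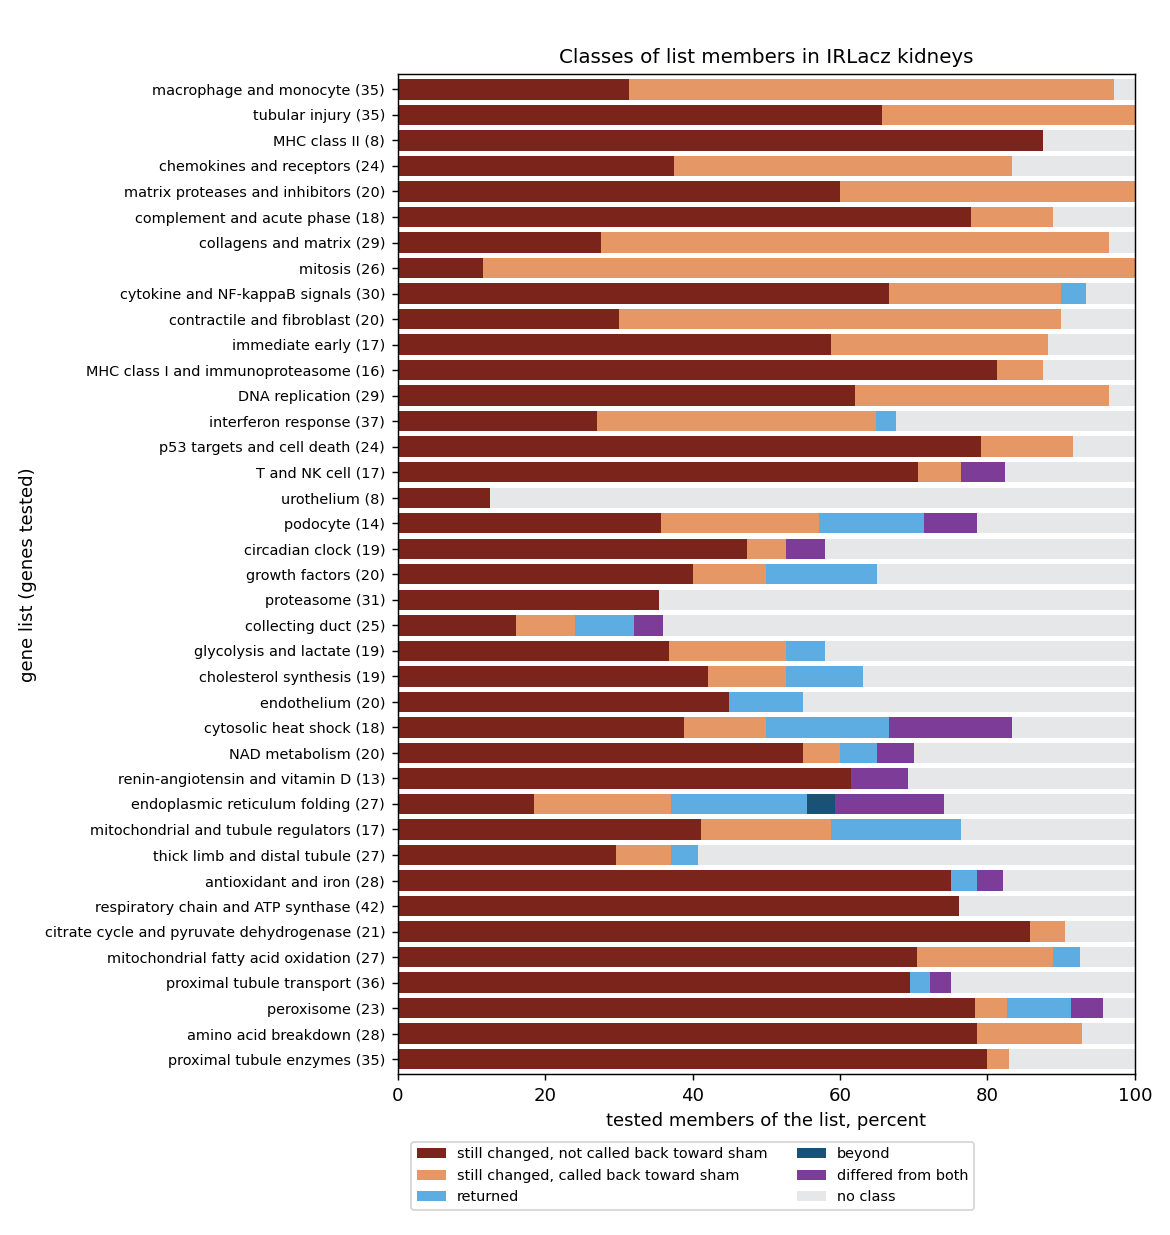
Share of the tested members (percent, horizontal axis) in each class for 39 gene lists (number of tested genes in brackets), ordered by the median IRLacz minus sham difference. Still changed members fill most of the lists at both ends, the returned, beyond and differed-from-both classes lie mostly in lists near the middle, and mitosis has the largest share called back toward sham, 23 of 26 genes.

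The tubular injury program stayed on. All 35 tested genes of that list were higher in IRLacz than in sham, with a median difference of 2.14, against 2.63 in IR. Havcr1 (gene ID 171283) was at 0.92, 1.31, 1.22, 1 and 1.64 FPKM in the sham libraries, at 541.75, 503.17, 516.58, 474.49 and 402.89 FPKM in IR, and at 138.13, 304.68, 494.94 and 552.67 FPKM in IRLacz. The IRLacz libraries were all far above sham, and they ran from below to above the whole IR range. The difference from sham was 7.22 ± 0.33 (SE, adjusted p = 1e-10). That from IR was -0.57 ± 0.33, which did not pass the test (adjusted p = 0.25).

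Other injury genes also stayed high. Lcn2 was at 2.15 to 4.77 FPKM in sham, 266.35 to 502.68 FPKM in IR and 107.87, 250.5, 254.27 and 418.3 FPKM in IRLacz. Spp1 (osteopontin, a secreted adhesive protein) rose from 381.72 to 454.45 FPKM in sham to 3822.8, 8022.51, 12814.74 and 13030.06 FPKM in IRLacz. IRLacz replicates 3 and 4 were above every IR library for Spp1 (7574.42 to 10389.64 FPKM). Vcam1, an adhesion molecule of injured tubule and vessel, was 4.46 ± 0.35 above sham and differed from IR by -0.05 ± 0.35. Krt20, a keratin, was at 0.03 to 0.21 FPKM in sham and at 6.43, 14.05, 36.76 and 22.5 FPKM in IRLacz. Serpina10, a protease inhibitor, and Aoc1, a diamine oxidase, were 5.21 ± 0.28 and 5.13 ± 0.33 above sham. Of the 35 list members, 12 were called back toward sham against IR. That number was 4 to 18 over the fits without 1 library, and 4 without IR replicate 2, IR replicate 3, IRLacz replicate 1 or IRLacz replicate 2.

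**Figure D3:**
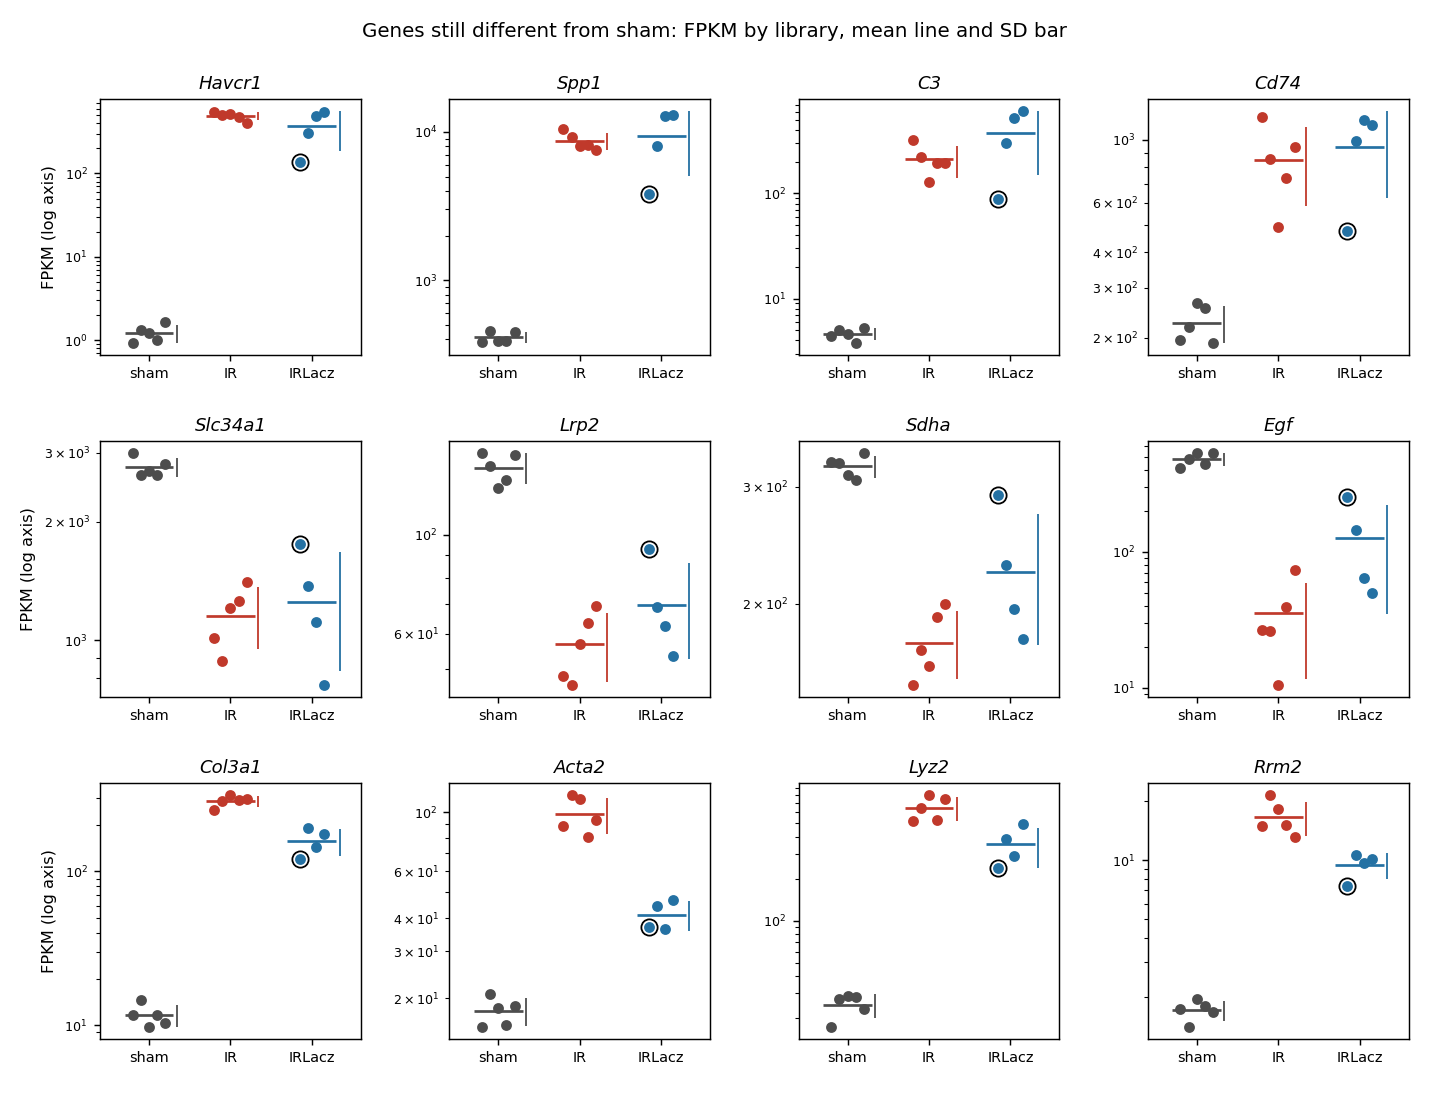
FPKM (log axis) in each library for 12 genes that were still different from sham in IRLacz. Points are libraries, lines are group means and bars 1 SD, and the circled point is IRLacz replicate 1. For Havcr1, Spp1, C3 and Cd74 the IRLacz range reaches that of IR, while the IRLacz libraries for Col3a1, Acta2, Lyz2 and Rrm2 lie between sham and IR without overlap.

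Proximal tubule functions stayed low. Of 36 tested transport genes, 26 were lower and 1 higher than in sham (median -0.80, against -1.03 in IR), and under median-ratio scaling 35 were lower. Slc34a1, the sodium-phosphate cotransporter of the proximal tubule, was at 2633.96 to 2996.64 FPKM in sham, 885.06 to 1408.17 FPKM in IR and 1760.72, 1375.72, 1108.84 and 767.46 FPKM in IRLacz. No IRLacz library reached the sham range, and replicate 4 was below every IR library. The level was 45.5% of sham, a difference of -1.20 ± 0.20 (adjusted p = 4.5e-05). Lrp2 (megalin, the protein uptake receptor) stood at 49.2% of sham with 92.79, 68.99, 62.53 and 53.62 FPKM. Slc22a7, an organic anion transporter, ranged most widely, from 92.31 and 57.7 FPKM to 9.64 and 1.72 FPKM in IRLacz, against 169.23 to 242.22 FPKM in sham. Slco1a1, another anion transporter, was at 18.5% of sham.

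Proximal tubule enzymes had the lowest median among lists of at least 8 tested genes, with 28 of 35 genes below sham and 1 above (median -1.17, against -1.31 in IR). G6pc, the last enzyme of glucose production, was at 267.9 to 423.09 FPKM in sham and at 96.53, 80.64, 43.64 and 31.53 FPKM in IRLacz, 18.9% of sham (-2.50 ± 0.29, adjusted p = 1.4e-06). Cyp4b1, a cytochrome P450, was at 25.9% and Dnase1, a secreted nuclease, at 16.1% of sham. Kap, an androgen-regulated protein of the proximal tubule and the most abundant of the genes named here, was at 30473.41 to 34939.23 FPKM in sham and at 23213.35, 15847.32, 10340.23 and 4973.35 FPKM in IRLacz. Kap was chosen after its values were seen. In bulk RNA, fewer proximal tubule cells and less RNA per cell cannot be told apart.

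Amino acid breakdown showed the same: 26 of 28 genes were lower, none higher (median -0.96, against -1.22 in IR). Hpd, which breaks down tyrosine, was at 32.57 to 48.79 FPKM in sham, 0.99 to 4.95 FPKM in IR and 14.32, 11.4, 5.91 and 6.33 FPKM in IRLacz. These IRLacz libraries lay between sham and IR without overlap, and Hpd was called in both directions (-1.98 ± 0.40 from sham, 1.48 ± 0.40 from IR, adjusted p = 0.024). The call against IR was lost in 4 of 14 fits that left out 1 library, with an adjusted p of up to 0.0719, and these fits left out IR replicate 2, IR replicate 3, IRLacz replicate 1 or IRLacz replicate 2. Kmo, an enzyme of tryptophan breakdown, was at 35% of sham.

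The oxidation of fuel stayed low too, in both organelles that do it. In the mitochondrial fatty acid oxidation list 24 of 27 genes were lower and none higher (median -0.52, against -0.85 in IR). The peroxisome list had 19 of 23 lower and 1 higher (median -0.83), and the citrate cycle and pyruvate dehydrogenase list 19 of 21 lower (median -0.47). Acadm (medium-chain acyl-CoA dehydrogenase) was at 504.85 to 608.44 FPKM in sham and at 358.29, 255.25, 175.27 and 148.26 FPKM in IRLacz. Cpt1a, which brings fatty acids into mitochondria, was at 70.9% of sham, with 104.3, 87.93, 81.72 and 74.42 FPKM against 112.53 to 127.76 FPKM. Its rise over IR, 0.36 ± 0.10 (adjusted p = 0.027), lost its call in 5 of 14 fits that left out 1 library and under median-ratio scaling (adjusted p = 0.0523). The 5 left-out libraries were IR replicates 1, 2 and 3 and IRLacz replicates 1 and 2. Ehhadh and Amacr, enzymes of peroxisomal oxidation, were at 38.3% and 37.2% of sham, and Pcx (pyruvate carboxylase) at 48.9%. Cat, the peroxide-breaking catalase, was at 47.4%, within an antioxidant and iron list of which 19 of 28 genes were lower and 5 higher.

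Respiratory chain and ATP synthase genes moved as a block. In IR all 42 tested genes were lower than in sham, and in IRLacz 32 were lower and none higher (median -0.44, against -0.58 in IR). No member was called between IRLacz and IR, but 4 were, above IR, without IRLacz replicate 4 and 1 without IR replicate 5. The mean of the list was below sham by -0.08 in IRLacz replicate 1 and by -0.35, -0.57 and -0.70 in replicates 2, 3 and 4. Without replicate 1, 39 of 42 were lower, and under median-ratio scaling all 42 were. Sdha and Sdhb, subunits of succinate dehydrogenase, were at 69.4% and 63.9% of sham. Sdha was at 291.12, 228.68, 196.33 and 176.77 FPKM in IRLacz, below every sham library (307.02 to 337.14 FPKM).

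**Figure D4:**
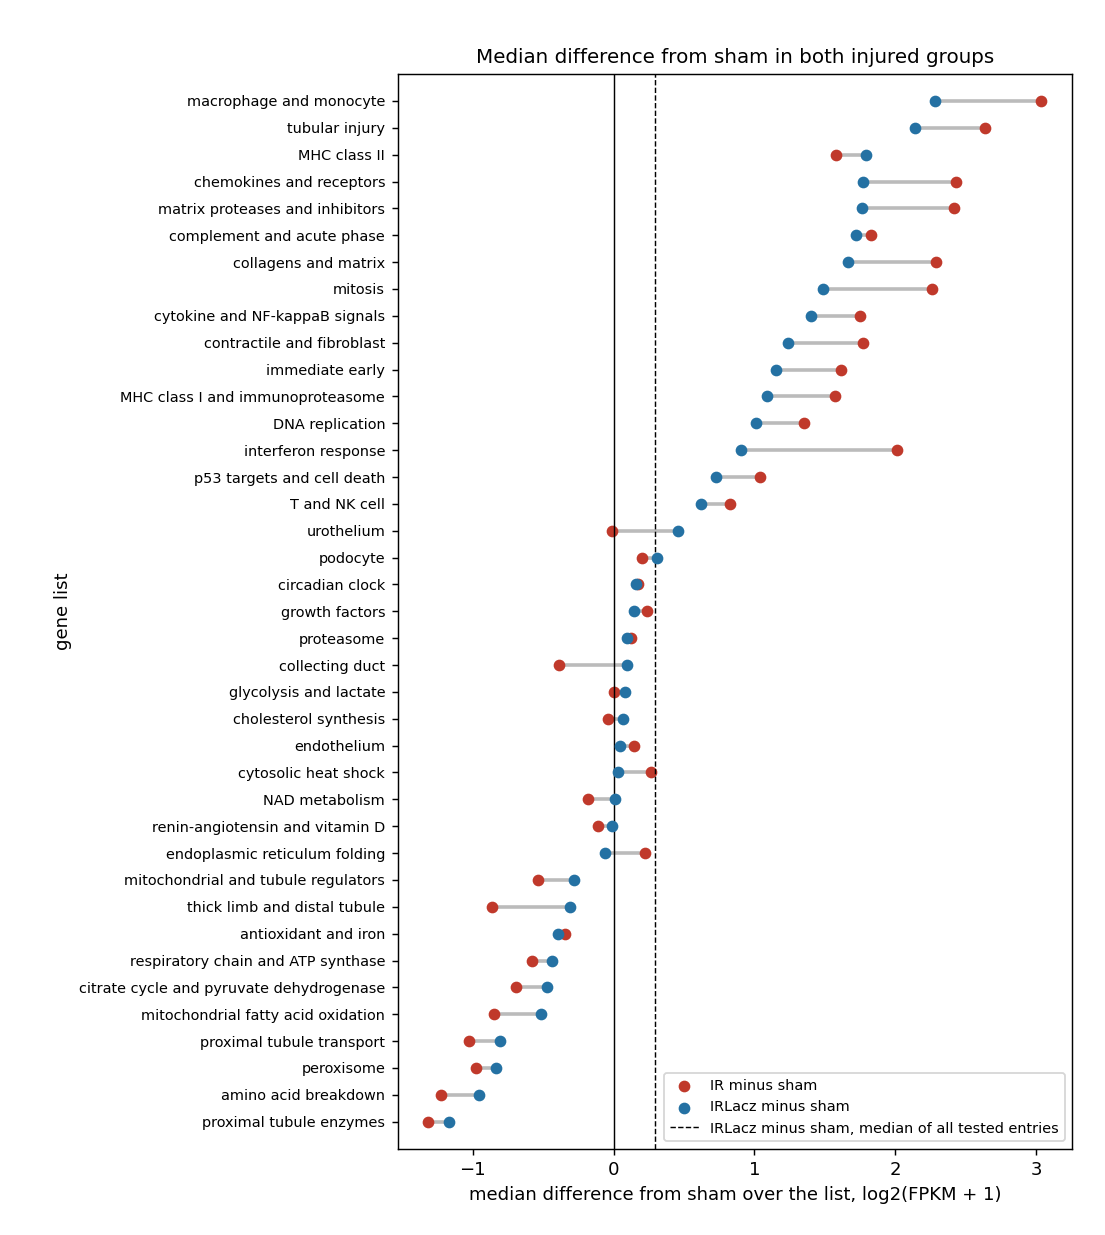
Median difference from sham, in log2(FPKM + 1), over the tested members of 39 gene lists in IR (red) and IRLacz (blue), both set against the same sham libraries. The dashed line is the median of all tested entries in IRLacz, 0.29. Lists run from macrophage and monocyte genes at 2.28 to proximal tubule enzymes at -1.17 in IRLacz.

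In the nephron beyond the proximal tubule fewer genes were called lower. Of 27 tested genes of the thick limb and distal tubule, 21 were lower in IR than in sham and 9 in IRLacz, with 3 higher (median -0.31, against -0.86 in IR). Under median-ratio scaling 14 were lower in IRLacz and 1 was higher (median -0.64, against -1.18 in IR). Umod (uromodulin, the thick limb's main secreted protein) was at 1328.29 to 2041.43 FPKM in sham, 842.09 to 1363.73 FPKM in IR and 2341.9, 1760.91, 1533.29 and 1470.13 FPKM in IRLacz. It passed no test in any of the 3 comparisons, and its difference from sham was 0.01 ± 0.28, and -0.32 under median-ratio scaling. Slc12a3, the salt cotransporter of the distal convoluted tubule, was at 217.29, 190.36, 157.22 and 152.54 FPKM, 0.93 ± 0.27 above IR (adjusted p = 0.029). It was not called against sham (-0.31 ± 0.27, adjusted p = 0.31), but its interval was too wide for the returned class. Under median-ratio scaling Slc12a3 was -0.64 from sham (adjusted p = 0.0517). Its call against IR was lost in 5 of 14 fits, those without IR replicates 1, 2 or 3 or IRLacz replicates 1 or 2.

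Egf, Pvalb and Kl were among the distal genes that stayed low. Egf, the epidermal growth factor made by the distal nephron, was at 417.29 to 534.53 FPKM in sham, 10.46 to 73.81 FPKM in IR and 252.26, 143.81, 64.53 and 49.91 FPKM in IRLacz, still 26.5% of sham (adjusted p = 0.0054). Pvalb, a calcium-binding protein of the early distal tubule, was at 30.06 to 36.84 FPKM in sham and at 14.53, 9.49, 4.36 and 1.42 FPKM in IRLacz. Neither was called against IR (adjusted p = 0.07 and 0.059). Kl, the FGF23 co-receptor Klotho, was at 40.9% of sham, a call that was lost without sham replicate 4, IRLacz replicate 1 or IRLacz replicate 4 (adjusted p up to 0.0985).

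Collecting duct genes were on both sides of sham, 4 of 25 higher and 5 lower (median 0.09, and -0.24 under median-ratio scaling, where 2 were higher and 9 lower). Against IR, 10 of the 25 were higher and none lower, where 5.39% of all entries were higher. That number ran from 2 to 15 without 1 library and was lowest without IR replicate 3 (2), IRLacz replicate 2 (3), and IR replicate 1 or IRLacz replicate 1 (4 each). It was 5 without IR replicate 2 and 6 without IR replicate 4 or sham replicates 1, 2, 3 or 5. Aqp2, the vasopressin-regulated water channel, was at 171.87 to 318.1 FPKM in sham and at 694.73, 526.1, 299.03 and 707.02 FPKM in IRLacz, 1.18 ± 0.32 above sham (adjusted p = 0.0034). IRLacz replicate 3 lay inside the sham range. Slc4a9, an anion exchanger of intercalated cells, had returned, with 27.57 to 33.16 FPKM in sham, 17.78 to 24.38 FPKM in IR and 27.32, 30.24, 26.52 and 29.68 FPKM in IRLacz. Atp6v0d2, a proton pump subunit, was higher than in sham and IR with 14.85, 15.43, 13.79 and 17.79 FPKM, but not under median-ratio scaling (0.021, adjusted p = 0.891). Its call against sham was also lost without IRLacz replicate 4 (adjusted p = 0.0835). Elf5, a transcription factor of principal cells, was 1.16 ± 0.21 above sham.

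Podocyte genes were called higher at the share of all entries (56.9%), 8 of 14 higher and 1 lower. Their median of 0.31 was near that of all entries, and under median-ratio scaling 5 were higher and 4 lower (median 0.06, and -0.055 under quantile scaling). Tcf21, a factor of podocytes that interstitial fibroblasts also express, was at 19.18 to 22.16 FPKM in sham and 35.52, 54.73, 48.18 and 61.84 FPKM in IRLacz. Kirrel, a slit diaphragm protein, was at 258% of sham. Endothelial genes had 6 of 20 higher and 3 lower (median 0.05), and 2 higher and 9 lower under median-ratio scaling. Ramp2, a receptor partner for adrenomedullin, was 0.69 ± 0.12 above sham, while Robo4, a guidance receptor of vessels, had returned to 92.8% of sham, though it was lower than sham under median-ratio scaling (-0.39, adjusted p = 0.000177).

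Matrix genes stayed high, but below IR. In the collagens and matrix list 28 of 29 genes were higher than in sham (median 1.66, against 2.29 in IR), and 20 of these 28 were called back toward sham. The number was 13 to 22 without 1 library, with 13 in each fit without IR replicate 2, IR replicate 3 or IRLacz replicate 1. Col3a1 (gene ID 12825), a fibrillar collagen, was at 9.72 to 14.54 FPKM in sham, 249.29, 286.84, 314.03, 293.16 and 295.07 FPKM in IR and 119.69, 191.92, 144.32 and 175.17 FPKM in IRLacz. The 3 groups did not overlap. IRLacz was 3.65 ± 0.15 above sham (adjusted p = 2.5e-11) and -0.88 ± 0.15 from IR (adjusted p = 0.0049).

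Other matrix and fibroblast genes held the same middle place. Col1a1 was at 57.73, 107.89, 98.52 and 127.32 FPKM in IRLacz, between 11.32 to 15.13 FPKM in sham and 167.95 to 215.1 FPKM in IR. Fn1 (fibronectin) was at 556% of sham and -0.88 ± 0.17 from IR (adjusted p = 0.0064). Acta2, the smooth muscle actin of myofibroblasts, came nearest to sham of these, at 37.07, 44.35, 36.39 and 46.95 FPKM against 15.57 to 20.8 FPKM in sham and 80.78 to 116 FPKM in IR. The difference was 1.16 ± 0.21 from sham and -1.23 ± 0.21 from IR (adjusted p = 9.4e-05 and 0.0049). In the contractile and fibroblast list 18 of 20 genes were higher than in sham and 12 of these were called back, 7 without IRLacz replicate 1 and 7 without IR replicate 3. Timp1, an inhibitor of matrix proteases, was at 1910% of sham and -1.09 ± 0.25 from IR. Mmp7, a matrix protease of injured tubule, and Mgp (matrix Gla protein) showed no call against IR. Mmp7 was at 3.12, 7.03, 6.22 and 16.3 FPKM in IRLacz and was listed at 0 in 3 of the 5 sham libraries. Tgfb1, the main fibrogenic cytokine, was at 409% of sham, and its call against IR (adjusted p = 0.019) was lost without IR replicate 3 or IRLacz replicate 1 (up to 0.0611).

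Macrophage genes showed the same partial return. In the macrophage and monocyte list 34 of 35 genes were higher than in sham (median 2.28, against 3.03 in IR), and 23 of these were called back toward sham. This number rested on single libraries: it was 6 without IRLacz replicate 1, 12 without IRLacz replicate 2, 14 without IR replicate 2 and 5 without IR replicate 3. The summed level of the list was 521.6 to 568.4 FPKM in sham, 2802 to 3692 FPKM in IR and 1258 to 2633 FPKM in IRLacz. Lyz2 (lysozyme) was at 17.19 to 28.89 FPKM in sham, 521.47 to 797.64 FPKM in IR and 238.84, 385.34, 293.14 and 495.39 FPKM in IRLacz. Adgre1 (the F4/80 antigen) was at 6.88, 11.79, 13.27 and 17.99 FPKM, just below the IR range of 18.33 to 22.05 FPKM. Trem2, a lipid receptor of macrophages, was at 0.13 to 0.86 FPKM in sham, 22.14 to 40.06 FPKM in IR and 6.55, 14.33, 10.96 and 21.53 FPKM in IRLacz. The calls of Lyz2, Adgre1 and Trem2 against IR (adjusted p = 0.029, 0.03 and 0.029) were lost in 5, 4 and 5 of 14 fits without 1 library. In each case these included the fits without IR replicate 2, IR replicate 3, IRLacz replicate 1 or IRLacz replicate 2, and for Lyz2 and Trem2 also that without IRLacz replicate 3. Among the IRLacz libraries replicate 1 had the lowest mean of the macrophage list (1.49 above sham) and of the collagen list (1.37 above sham). The part of macrophage number in the matrix result was not tested.

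Mitosis genes had the largest share of members called back toward sham. All 26 mitosis genes were higher than in sham (median 1.48, against 2.26 in IR), and 23 were called back, 15 without IRLacz replicate 1. Ube2c, a ubiquitin-conjugating enzyme of mitotic exit, was at 0.32 to 1.49 FPKM in sham, 19.11 to 33.64 FPKM in IR and 6.86, 11.07, 14.07 and 9.36 FPKM in IRLacz. The IRLacz libraries lay between the other groups without overlap (2.56 ± 0.25 above sham, -1.27 ± 0.25 from IR, adjusted p = 0.0066). Cdc20 and Top2a, an activator of mitotic exit and a topoisomerase, were -0.93 ± 0.20 and -0.73 ± 0.20 from IR. The call of Top2a was lost without IR replicate 2, IR replicate 3 or IRLacz replicate 1 (adjusted p up to 0.0821). In the DNA replication list 27 of 29 genes were higher and 1 lower (median 1.01). Rrm2, a subunit of ribonucleotide reductase, was at 7.35, 10.6, 9.64 and 10.19 FPKM, between 1.4 to 1.94 FPKM in sham and 13.11 to 21.51 FPKM in IR. Of 24 p53 target and cell death genes, 20 were higher and 2 lower (median 0.73), and 3 were called back, or 1 without IR replicate 2, IR replicate 3 or IRLacz replicate 1. Gsdmd, the pore-forming gasdermin, was at 444% of sham.

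Chemokine and cytokine genes remained raised. Of 24 chemokine and receptor genes 21 were higher than in sham (median 1.77, against 2.43 in IR), and 11 of those still changed were called back, 6 without IRLacz replicate 1 and 7 without IR replicate 2, IR replicate 3 or IRLacz replicate 2. Ccl2, the main monocyte attractant, was at 0.29 to 1.77 FPKM in sham, 44.18 to 66.73 FPKM in IR and 9.64, 33.8, 36.73 and 30.41 FPKM in IRLacz. Its libraries did not overlap IR, but the difference of -1.10 ± 0.36 did not pass the test (adjusted p = 0.052). Cxcl1, a neutrophil attractant, was at 5.17, 25.04, 47.34 and 26.96 FPKM in IRLacz, across the IR range of 21.2 to 38.19 FPKM. In the cytokine and NF-kappaB list 27 of 30 genes were higher (median 1.40), among them Socs3, a feedback inhibitor of cytokine signalling, at 1420% and Relb, an NF-kappaB subunit, at 761% of sham. Of 17 immediate early genes 15 were higher (median 1.15). Klf6 and Junb, early response factors, were at 488% and 417% of sham.

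The interferon response had the lowest median of IRLacz against IR of all the lists (-1.06). In IR 36 of 37 genes were higher than in sham (median 2.01). In IRLacz 24 were (median 0.91), 28 without replicate 1 and 15 under median-ratio scaling. Against IR 24 of 37 were lower, where 7.92% of all entries were. That number was 3 without IR replicate 3, 4 without IRLacz replicate 1, 6 without IR replicate 1, 7 without IRLacz replicate 2 and 8 without IR replicate 4, and up to 35 in the other fits without 1 library. Both injured groups varied: the mean of the list above sham was 2.56, 1.63, 2.27, 2.62 and 0.68 in the IR libraries and 0.13, 1.03, 1.42 and 0.96 in the IRLacz libraries. The 14 still changed members that were called back numbered 2 to 28 over those fits. Bst2 (tetherin, which holds budding virus at the cell surface) was at 27.09 to 35.51 FPKM in sham, 381.48, 176.62, 315.47, 372.64 and 70.09 FPKM in IR and 34.23, 70.07, 92.17 and 70.49 FPKM in IRLacz. It was -1.81 ± 0.38 from IR (adjusted p = 0.0087) and 1.06 ± 0.38 above sham (adjusted p = 0.019). The call against sham was lost without IRLacz replicate 3 (adjusted p = 0.0684) and under median-ratio scaling (0.74, adjusted p = 0.0917). Gbp3, an interferon-induced GTPase, was at 4.28, 12.74, 24.72 and 14.69 FPKM against 2.38 to 3.49 FPKM in sham and did not differ from IR beyond the test (adjusted p = 0.12).

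The promoter of Bst2 is shown as an example of an interferon list gene that was called against IR. Factors induced by interferon bind the core of the interferon-stimulated response element, TTTC and TTTC with 2 bases between them, searched on both strands in RefSeq promoters of assembly GRCm38.p6, from 250 bases before to 50 after each gene's start. The match was present in 16 of 28 interferon list genes with a promoter (57.1%), against 3.99% of all 27025 genes. The 250 bases before the start lie at chr8:71537473-71537722 on the minus strand, and the capitals mark 2 overlapping matches, read on the opposite strand.
Bst2: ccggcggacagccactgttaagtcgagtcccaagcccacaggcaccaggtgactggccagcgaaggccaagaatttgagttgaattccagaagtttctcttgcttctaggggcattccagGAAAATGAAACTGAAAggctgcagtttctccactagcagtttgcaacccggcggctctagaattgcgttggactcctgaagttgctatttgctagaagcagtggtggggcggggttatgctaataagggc
A match is a run of letters and does not show binding in these kidneys.

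MHC class II, complement and neutrophil genes remained above sham, with few calls against IR. Of 8 tested class II genes 7 were higher than in sham (median 1.79, against 1.58 in IR), and none was called between IRLacz and IR, or 1, above IR, without IRLacz replicate 1. Cd74, the chaperone of class II molecules, was at 191.42 to 264.63 FPKM in sham, 491.37 to 1207.78 FPKM in IR and 474.46, 992.25, 1176.5 and 1124.88 FPKM in IRLacz. IRLacz replicates 2, 3 and 4 were within the IR range and replicate 1 was just below it. H2-DMb1, a peptide-loading chain, was listed at 0 in 2 sham libraries, and it has a near-identical neighbour copy, so its values are uncertain.

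In the complement and acute phase list 15 of 18 genes were higher and 1 lower (median 1.72, against 1.82 in IR), and 2 were called back. C3, the central complement protein, was at 3.77 to 5.26 FPKM in sham, 128.84 to 323.09 FPKM in IR and 89.26, 303.29, 516.38 and 600.84 FPKM in IRLacz. IRLacz replicates 3 and 4 were above every IR library and replicate 1 below every one, and the difference from IR of 0.58 ± 0.44 did not pass the test (adjusted p = 0.38). Fgg, a fibrinogen chain, was 3.40 ± 0.27 above sham. Only 3 of 12 listed neutrophil genes passed the filter, and all 3 were higher than in sham. The neutrophil genes S100a8 and S100a9 were at 2.93, 6.34, 13.93 and 10.34 FPKM and at 4.16, 4.32, 13.84 and 14.39 FPKM in IRLacz, against at most 1.06 and 1.5 FPKM in sham. Of 16 MHC class I and immunoproteasome genes 14 were higher (median 1.09) and 1 was called back. That number was 0 without IR replicates 1, 2, 3 or 4 or IRLacz replicates 1 or 2, 2 without IRLacz replicate 3 and 4 without IR replicate 5. Of 17 T and NK cell genes 14 were higher (median 0.62), or 9 without IRLacz replicate 3, and Il2rg, the shared chain of interleukin receptors, was at 276% of sham. The call of Il2rg against IR (adjusted p = 0.047) was lost in 12 of 14 fits without 1 library.

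Returned genes included regulators of mitochondria and transporters. Of 17 genes in the mitochondrial and tubule regulator list 3 had returned (3.03% of all entries had), 10 were lower than in sham and 1 was higher. The number returned was 1 under median-ratio scaling. It was 2 to 4 without 1 library, and 2 without IR replicates 2 or 3 or IRLacz replicates 1, 2 or 3. Ppargc1a (gene ID 19017), the coactivator that drives mitochondrial genes, was at 10.43, 10.95, 9.45, 8.94 and 11.72 FPKM in sham, 5.38, 5.61, 4.7, 6.91 and 6.76 FPKM in IR and 12.65, 10.45, 9.17 and 9.7 FPKM in IRLacz. IRLacz replicates 2, 3 and 4 lay inside the sham range, replicate 1 above it, and all were above every IR library. It was 0.02 ± 0.14 from sham and 0.74 ± 0.14 above IR (adjusted p = 0.0063). Under median-ratio scaling it was -0.29 from sham (adjusted p = 0.113), outside the returned class. Esrrg, a nuclear receptor that works with it, was at 10.36 to 12.46 FPKM in sham, 5.73 to 9.04 FPKM in IR and 12.46, 12.94, 13.61 and 12.6 FPKM in IRLacz. Esrrg kept its class in all 24 other settings tried. Ppara, the receptor that switches on fatty acid oxidation, did not return, at 57.6% of sham (adjusted p = 0.00023).

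Metabolic genes that had returned sat inside lists that had not. Hadha, of mitochondrial fatty acid oxidation, was at 63.26 to 68.94 FPKM in sham, 46.8 to 53.49 FPKM in IR and 66.54, 62.91, 55.91 and 61.55 FPKM in IRLacz. Decr2, a peroxisomal reductase, was at 26.08, 25.26, 26.55 and 24.71 FPKM in IRLacz, among or above the sham libraries (23.37 to 25.84 FPKM), but -0.26 from sham under median-ratio scaling (adjusted p = 0.0134). Pfkm, a glycolytic kinase, was at 91% of sham, Slc2a9, a urate transporter, at 85.5%, Sult1a1, a sulfotransferase, at 93% and Lifr, a cytokine receptor, at 96.5%. All 4 were lower in IR and above it in every IRLacz library. Slc2a9 kept the returned class in only 15 of 24 other settings, and left it without sham replicates 3, 4 or 5 or IRLacz replicates 1, 2 or 3. Hadha, Pfkm, Slc2a9, Slc4a9 and Lifr were called lower than sham under median-ratio scaling, by -0.43, -0.46, -0.49, -0.42 and -0.36. Sult1a1 was at -0.40 from sham there (adjusted p = 0.0508) and left the returned class under median-ratio and quantile scaling.

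Other genes had returned from a high level in IR. Sdf2l1, a partner of endoplasmic reticulum chaperones, was at 14.68 to 23.08 FPKM in sham, 27.25 to 48.95 FPKM in IR and 18.63, 19.87, 21.08 and 21.84 FPKM in IRLacz. Srm (spermidine synthase) was at 17.02 to 20.45 FPKM in sham, 27.91 to 39.41 FPKM in IR and 20.3, 19.19, 22.26 and 17.7 FPKM in IRLacz. Nuak2, a stress-activated kinase, was at 45.96, 32.78, 44.62 and 50 FPKM, against 35.42 to 46.02 FPKM in sham and 61.56 to 83.81 FPKM in IR. Their differences from IR were -0.82 ± 0.15, -0.69 ± 0.12 and -0.72 ± 0.12 (adjusted p = 0.006, 0.0058 and 0.0057). All 3 kept the returned class in all 24 other settings, although the sign of their small differences from sham (0.15, 0.06 and 0.06) turned under median-ratio scaling (-0.17, -0.26 and -0.26).

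**Figure D5:**
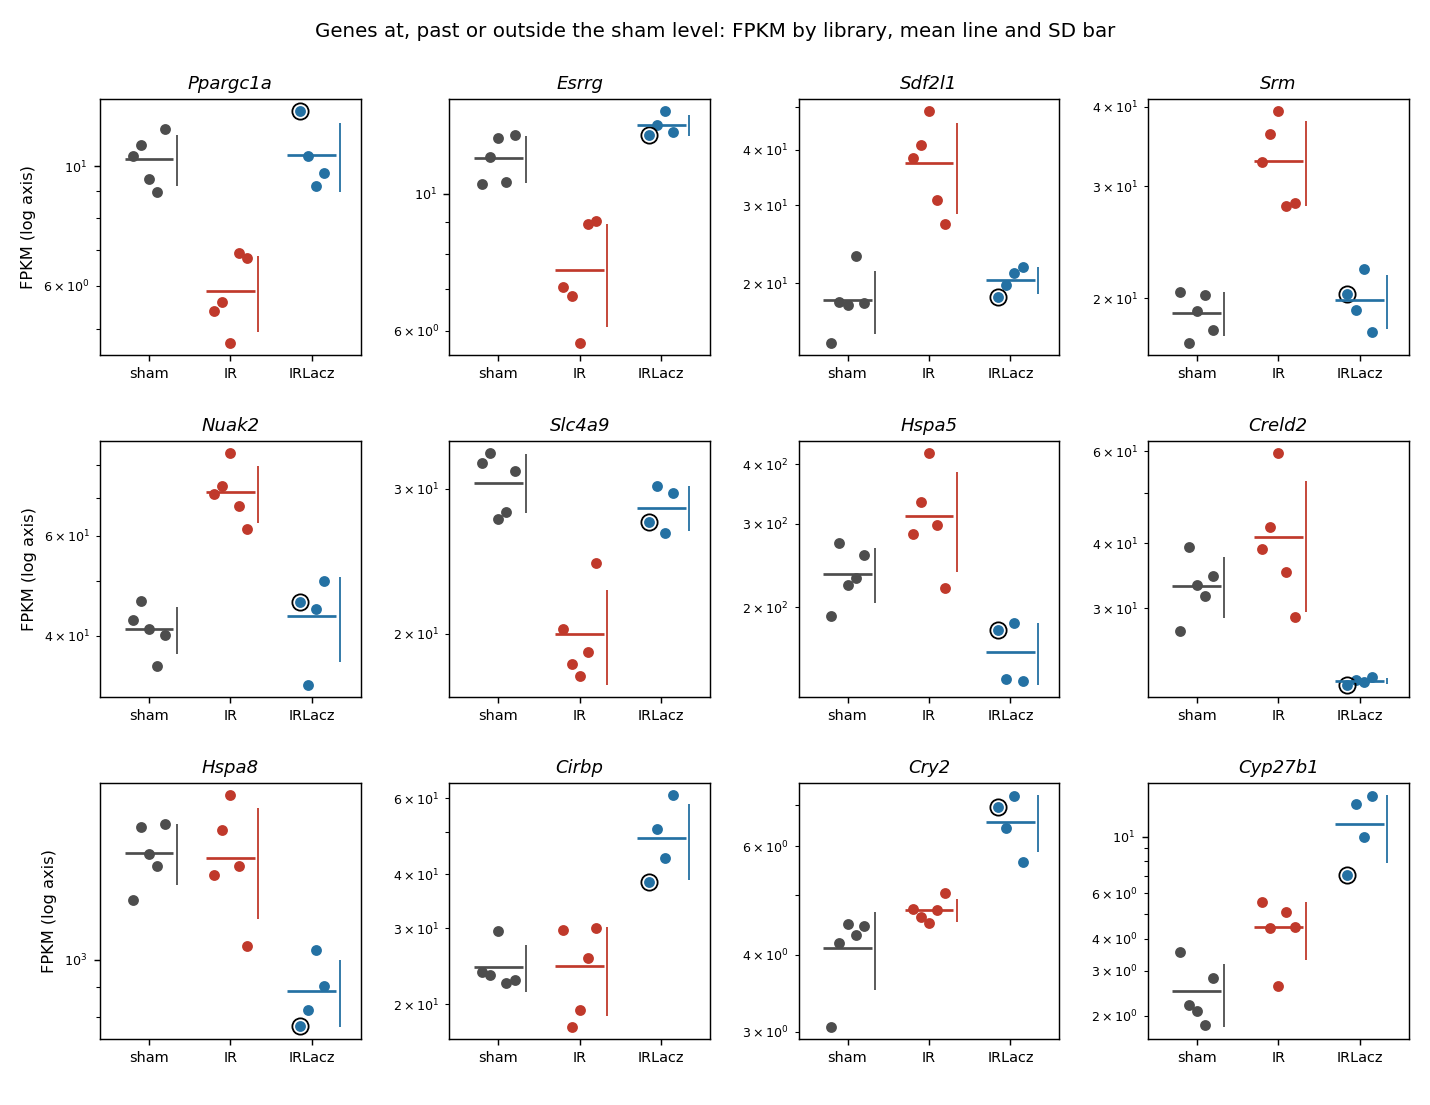
FPKM (log axis) in each library for 12 genes that were back at, past or apart from the sham level in IRLacz. Points are libraries, lines are group means and bars 1 SD, and the circled point is IRLacz replicate 1. Ppargc1a, Esrrg, Sdf2l1, Srm, Nuak2 and Slc4a9 overlap sham and not IR, while the 4 IRLacz libraries of Hspa5, Creld2 and Hspa8 lie below, and those of Cirbp, Cry2 and Cyp27b1 above, all sham and IR libraries.

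Several chaperone genes were below the sham level, but in the folding and heat shock lists only Hspa5 was in the beyond class. These proteins fold new or damaged proteins, in the endoplasmic reticulum or in the cytosol, and their genes are switched on when unfolded protein builds up. Of 27 endoplasmic reticulum folding genes, 14 rose and 4 fell in IR relative to sham, whereas in IRLacz 7 rose and 10 fell (median -0.06, against 0.22 in IR). Under median-ratio scaling none was higher and 18 were lower in IRLacz. Against IR 16 of 27 were lower and none higher, or 9 without IR replicate 3 and 10 without IRLacz replicate 2. The returned members were 5, 1 was beyond sham and 4 differed from both groups (2 without IR replicate 5 or IRLacz replicate 2).

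Hspa5 (BiP, the main chaperone of the endoplasmic reticulum, gene ID 14828) was at 192.24, 273.25, 223.45, 230.92 and 257.95 FPKM in sham, 285.94, 333.67, 421.86, 298.09 and 219.89 FPKM in IR and 179.55, 141.75, 185.5 and 139.88 FPKM in IRLacz. All IRLacz libraries were below all others. The difference was -0.54 ± 0.15 from sham (adjusted p = 0.0043) and -0.92 ± 0.15 from IR (adjusted p = 0.0049). It left the beyond class where its rise in IR was no longer called, without sham replicate 1, IR replicate 2 or IR replicate 3 and under median-ratio or quantile scaling, while it stayed below sham under median-ratio scaling (-0.88, adjusted p = 0.000162). Creld2, a secreted folding factor, was at 27.12 to 39.24 FPKM in sham, 28.83 to 59.54 FPKM in IR and 21.34, 21.86, 21.65 and 22.1 FPKM in IRLacz (-0.58 ± 0.15 from sham, adjusted p = 0.0024). Hyou1, Dnajb11 and Syvn1, of the same folding and disposal machinery, also differed from both groups, with differences from sham of -0.38, -0.31 and -0.28. Hsp90b1 (the endoplasmic reticulum form of HSP90) had returned, and these 4 genes were chosen after their values were seen. Hsp90b1 was 0.13 from sham and -0.42 from IR (adjusted p = 0.0079). Herpud1 and Edem1, which help destroy misfolded protein, were at 55.5% and 65.5% of sham, and IR was low as well.

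The unfolded protein response acts on these genes through the endoplasmic reticulum stress element, CCAAT and CCACG with 9 bases between them, searched on both strands in the same windows. The element was found in 8 of the 23 list genes with a promoter (34.8%) and in 0.14% of all genes. Promoters of 3 named members are printed as the 250 bases before the start, with the element in capitals. Those of Hspa5 (chr2:34771840-34772089, plus strand), Creld2 (chr15:88819396-88819645, plus strand) and Hsp90b1 (chr10:86705445-86705694, minus strand) hold 1, 1 and 2 matches. The single match of Creld2 and the second of Hsp90b1 are read on the opposite strand.
Hspa5: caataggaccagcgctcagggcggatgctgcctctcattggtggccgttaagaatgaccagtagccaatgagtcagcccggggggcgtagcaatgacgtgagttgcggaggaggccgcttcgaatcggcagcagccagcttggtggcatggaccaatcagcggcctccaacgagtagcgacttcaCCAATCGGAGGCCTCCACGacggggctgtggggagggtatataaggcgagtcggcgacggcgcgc
Creld2: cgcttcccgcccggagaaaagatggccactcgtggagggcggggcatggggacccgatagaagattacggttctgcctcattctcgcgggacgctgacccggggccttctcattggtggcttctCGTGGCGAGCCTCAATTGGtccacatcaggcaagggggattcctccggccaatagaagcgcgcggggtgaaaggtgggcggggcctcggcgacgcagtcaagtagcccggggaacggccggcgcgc
Hsp90b1: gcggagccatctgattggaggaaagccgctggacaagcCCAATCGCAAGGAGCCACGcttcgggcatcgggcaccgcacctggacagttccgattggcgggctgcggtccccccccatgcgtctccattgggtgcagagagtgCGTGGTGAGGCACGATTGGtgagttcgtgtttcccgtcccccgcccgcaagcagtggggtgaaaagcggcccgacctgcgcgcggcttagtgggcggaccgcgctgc
The 3 genes took different classes, beyond, differed from both and returned, and all were lower in IRLacz than in IR.

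Cytosolic chaperones divided. Of 18 heat shock genes 6 were higher and 6 lower than in sham (median 0.03, and 4 higher and 11 lower under median-ratio scaling), and 9 were lower than in IR, or 3 without IR replicate 3 and 5 without IR replicate 2 or IRLacz replicate 2. Hspa8, the constitutive HSC70, was at 1265.44 to 1704.25 FPKM in sham, 1056 to 1905.1 FPKM in IR and 772.06, 822.96, 1037.16 and 903.45 FPKM in IRLacz. It was at 58.1% of sham, below all sham and IR libraries (-0.78 ± 0.16, adjusted p = 0.00024). Hsph1 (HSP110) was at 34.03, 27.7, 24.33 and 24.6 FPKM, 53.9% of sham, and overlapped IR only in replicate 1. Dnaja1, a cochaperone chosen after its values were seen, was at 56.3% of sham. The calls of Hsph1 and Dnaja1 against IR were lost without IR replicate 3 (adjusted p = 0.0585 and 0.0507). The small heat shock proteins Hspb1 and Cryab stayed high, at 777% and 271% of sham, with 128.77, 283.61, 354.36 and 419.87 FPKM of Hspb1 against 28.59 to 46.77 FPKM.

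Genes above both groups included a cold-inducible protein. Cirbp, an RNA-binding protein induced by cooling and under daily rhythm, was at 22.43 to 29.64 FPKM in sham, 17.73 to 30.1 FPKM in IR and 38.46, 50.76, 43.58 and 60.95 FPKM in IRLacz. All IRLacz libraries were above all others, by 0.95 ± 0.15 from sham and 0.96 ± 0.15 from IR (adjusted p = 3.3e-05 and 0.0044). Its relative Rbm3, chosen after its values were seen, was raised in both injured groups, at 71.23, 113.42, 140.5 and 147.91 FPKM in IRLacz and 86.67 to 122.55 FPKM in IR against 34.6 to 43.24 FPKM in sham. Azin2, a regulator of polyamine synthesis, was at 5.48, 8.01, 6.74 and 9.1 FPKM, above 2.48 to 4.09 FPKM in sham and 3.44 to 5.35 FPKM in IR. Ranbp3l was 0.77 ± 0.25 above sham (adjusted p = 0.011) and 1.15 ± 0.25 above IR, with 17.14 FPKM in IRLacz replicate 1 and 7.87 to 10.26 FPKM in the other 3. Without replicate 1 its adjusted p against sham was 0.0537, and under median-ratio scaling 0.128. Ttll10, a modifier of tubulin, was the one named gene beyond sham on the high side, at 5.76, 6.09, 6.73 and 7.12 FPKM against 3.78 to 4.87 FPKM in sham and 2.3 to 4.23 FPKM in IR. Under median-ratio scaling it did not differ from sham beyond the test (0.14, adjusted p = 0.407). Dusp4, a phosphatase of MAP kinases, was beyond sham on the low side, at 8.04, 6.19, 7.46 and 6.63 FPKM against 8.3 to 9.94 FPKM. That call was lost without IRLacz replicate 2 or 4 (adjusted p up to 0.066). Dusp4 also left the beyond class under median-ratio and quantile scaling, though it stayed below sham under median-ratio scaling (-0.62, adjusted p = 0.00018). Tfec, a transcription factor of the MITF family, was lower than both groups at 61.8% of sham.

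Clock genes, which cycle over the day, were called about as often as other entries. Of 19 tested 9 were higher and 5 lower than in sham, where 70.3% of all entries were called, and 4 higher and 9 lower under median-ratio scaling. Cry2, a repressor of the clock, was at 3.05 to 4.49 FPKM in sham, 4.5 to 5.04 FPKM in IR and 6.94, 6.42, 7.25 and 5.65 FPKM in IRLacz, above both (adjusted p = 8.7e-05 and 0.019). Without IR replicate 3 the call against IR was lost (adjusted p = 0.0542). Arntl, an activator of the clock, was at 7.67 to 11.83 FPKM in sham, 3.97 to 5.7 FPKM in IR and 2.45, 4.17, 2.91 and 5.63 FPKM in IRLacz, 39.7% of sham (adjusted p = 1.4e-05). Its relative Npas2 was at 40.1% of sham. Dbp, an output gene with a strong daily rhythm, was at 4.8, 13.67, 24.11, 5.99 and 20.92 FPKM in sham and 77.62, 37.5, 55.71 and 17.63 FPKM in IRLacz, 1.74 ± 0.46 above sham (adjusted p = 0.0027). Per3 was at 208% of sham. Npas2 and Per3 were chosen after their values were seen. None of Arntl, Npas2, Dbp and Per3 was called between IRLacz and IR. Sham libraries themselves ranged widely for Dbp, and the part of collection time in these results, or in those of Cirbp and the chaperones, was not tested.

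Hormone and growth factor genes moved one by one. Igfbp3, a carrier of insulin-like growth factor, was at 98.33 to 140.21 FPKM in sham, 56.1 to 70.92 FPKM in IR and 40.3, 39.19, 44.2 and 43.3 FPKM in IRLacz. It was thus further from sham than IR (-0.56 ± 0.10 from IR, adjusted p = 0.0061), with no overlap between the groups. Cyp27b1, which makes active vitamin D, also went further, at 7.08, 13.39, 9.95 and 14.34 FPKM against 1.84 to 3.56 FPKM in sham and 2.61 to 5.58 FPKM in IR (1.15 ± 0.24 above IR, adjusted p = 0.0084). Its rise in IR was small (0.625, adjusted p = 0.018), with overlap of IR and sham. Cyp27b1 left the still changed class under median-ratio and quantile scaling, though it stayed above sham under median-ratio scaling (1.52, adjusted p = 1.73e-05). Of 19 cholesterol synthesis genes 4 were higher and 7 lower, and 1 and 9 under median-ratio scaling, with Idi1, an isomerase of the pathway, at 34.5% of sham. Of 20 genes of NAD metabolism 6 were higher and 7 lower, and 4 and 11 under median-ratio scaling. Nnmt, which methylates nicotinamide, was at 3.41, 5.38, 6.92 and 7.68 FPKM against 0.09 to 2.07 FPKM in sham and 9.69 to 13.64 FPKM in IR. Its call against IR (adjusted p = 0.032) was lost without IR replicates 1, 2 or 3 or IRLacz replicates 1 or 2. Of 19 glycolysis and lactate genes 8 were higher and 6 lower, and 5 and 10 under median-ratio scaling. Proteasome genes, 10 of 31 higher and 1 lower, had a median of 0.09, and under median-ratio scaling none was higher and 25 were lower.

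Markers of blood and of other tissues were checked in the same libraries. All 4 tested red blood cell genes were lower in IRLacz than in sham (median -2.58), with summed levels of 221.8 to 1349 FPKM in sham, 52.7 to 221.6 FPKM in IR and 17.75 to 203.6 FPKM in IRLacz. Hba-a1, a globin with a near-identical copy, was at 84.06 to 492.68 FPKM in sham and at 5.3, 28.26, 75.26 and 28.61 FPKM in IRLacz. The part of blood content in the other results was not tested. The 3 tested B and plasma cell genes summed to 2.21 to 4.73 FPKM in sham and 4.43 to 7.28 FPKM in IRLacz. Of 8 urothelium genes 1 was higher, with sums of 5.07 to 25.71 FPKM in sham and 9.25 to 64.37 FPKM in IRLacz. The 1 tested adrenal gene and the 2 tested skeletal muscle genes were at sums of at most 1.27 and 2.09 FPKM in IRLacz, and no adipose gene passed the filter. The 4 tested liver genes summed to 104.6 to 125.4 FPKM in sham and 37.23 to 171.4 FPKM in IRLacz, and 2 of them were lower than in sham.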

How the data were processed

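RNA of whole mouse kidney was measured as FPKM, and the deposited table holds 1 FPKM value per gene and library as the authors made it. HISAT, StringTie 1.0.4 and the build mm9 are given in the submitters' processing notes, with no role or order. Gene IDs were matched to RefSeq symbols for 18238 of 19287 entries, 933 were unnamed loci and 116 had no match. Read counts were not used here, so depth is known only in part: in 42 low entries 59.2% of 125 values lay within 0.1 of a whole number of steps (20% with no steps), and relative depth ran from 0.97 to 1.031. A value of 0 may stand for an estimate that failed, since 27 entries with a median over 5 FPKM had a library at 0.

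Entries were kept where 4 or more of the 19 libraries reached 1 FPKM, and log2(FPKM + 1) was fitted in limma 3.58.1 (R 4.3.3) with an intensity trend, in 1 model of all 4 groups with 15 residual degrees of freedom. Benjamini-Hochberg adjustment ran over all 13594 entries. The fit was tested on simulated data with equal spread in all groups and few changed entries, unlike these libraries. That test therefore does not show how reliable the calls made here are. The 46 gene lists hold 997 genes, of which 7 were not found and 925 were tested. Promoters come from RefSeq (GRCm38.p6), and no coordinates in mm9 were used here. Named genes are a set of markers, the most changed members of each list and the most changed entries of each class, and a gene outside this rule is said to be chosen after its values were seen. The members and lists were chosen with earlier results of these data known. Alternatives were other pseudocounts, filters, scalings, library weights, margins, a fit without IRLac, a replicate block and each library left out. Some results are not reported here.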

Additional observations from a re-analysis of the deposited data

Results flagged for a closer look

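In 12 of 321 groups of libraries (107 genes in 3 groups each), 1 library lay far from the others of its group, and chance alone does this in about 1 group in 20. In sham, replicate 1 was high for Igfbp3 (140.21 FPKM, the others 98.33 to 110.47 FPKM) and Vcam1 (3.66 FPKM, the others 3.06 to 3.21 FPKM) and low for Cry2 (3.05 FPKM, the others 4.18 to 4.49 FPKM). Sham replicate 3 was high for Bst2 (35.51 FPKM, the others 27.09 to 29.09 FPKM) and Cirbp (29.64 FPKM, the others 22.43 to 23.81 FPKM). Sham replicate 4 was high for Junb (22.8 FPKM) and sham replicate 2 for Kirrel (2.76 FPKM). In IR, replicate 2 was high for Aqp2 (565.48 FPKM, the others 211.57 to 306.01 FPKM), replicate 1 for Serpina10 (101.6 FPKM), and replicate 5 for Slc22a7 (32.34 FPKM, the others 1.33 to 8.22 FPKM) and Pvalb (6.17 FPKM, the others 0.28 to 1.5 FPKM), while replicate 4 was low for Tgfb1 (49.41 FPKM). No IRLacz library was far from its group in this way.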

How the results depend on the processing

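The number of entries called between IRLacz and sham was 8550 to 9983 when 1 library was left out. Scaling decided the split by direction. Under median-ratio scaling IRLacz had 4255 entries higher and 4218 lower than sham, and IR 4830 higher and 4721 lower. Under quantile scaling these were 3518 and 4215 for IRLacz and 4222 and 5294 for IR. With a mean of at least 5 FPKM required, 5130 entries were higher in IRLacz. Library weights gave 2978 calls between IRLacz and IR (1448 higher), 42 entries beyond sham and 432 that differed from both. Returned entries were 769 under quantile scaling and 255 with a narrower margin around the sham level. Entries beyond sham were 8 with no filter and 22 in a fit of sham, IR and IRLacz alone. Leaving out 1 library gave 606 to 2197 calls between IRLacz and IR (231 to 890 higher, 375 to 1392 lower), 148 to 512 returned, 4 to 20 beyond and 91 to 284 that differed from both. The filters changed the number of entries tested, to 9520 with a mean of at least 5 FPKM and 19287 with no filter. A narrower margin can only lower the number returned. The cause of the other shifts was not tested.

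Among lists with most members called in the same direction, the signs of 2 medians turned under quantile scaling, podocyte (-0.055) and adrenal (-0.309). Medians of other lists turned from above to below sham under median-ratio scaling. They were -0.238 for collecting duct, -0.255 for endothelium, -0.299 for cytosolic heat shock, -0.252 for glycolysis and lactate and -0.315 for NAD metabolism. Cholesterol synthesis (-0.241), circadian clock (-0.052), growth factors (-0.157) and proteasome (-0.238) turned likewise. Small differences from sham turned for 8 genes. Under median-ratio scaling they were -0.261 for Decr2, -0.144 for Esrrg, -0.264 for Nuak2, -0.285 for Ppargc1a, -0.168 for Sdf2l1, -0.256 for Srm and -0.322 for Umod. Under quantile scaling they were -0.136 for Decr2, -0.158 for Esrrg, -0.033 for Nuak2, -0.322 for Ppargc1a, -0.098 for Sdf2l1, -0.186 for Srm and -0.021 for Ttll10. Library weights gave -0.069 for Nuak2, -0.064 for Ppargc1a and -0.051 for Umod. Without 1 library Nuak2 ran from -0.009 to 0.189, Ppargc1a from -0.065 to 0.077 and Umod from -0.128 to 0.096. Only that of Decr2 under median-ratio scaling passed the test.

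With only 4 pairs, it was not settled whether replicate numbers pair the libraries. Deviations from the group mean correlated at -0.008 to 0.104 between same-numbered IRLacz and sham libraries. Sham replicates 1, 2 and 4 correlated best with the IRLacz library of their own number (0.062, 0.103 and 0.104). Sham replicate 3 did not (-0.008, against 0.047 with IRLacz replicate 2). IRLacz replicates 1 and 3 correlated best with sham replicate 5 (0.092 and 0.075), which has no IRLacz library of its number. With the replicate number as a block, 9219 entries were called between IRLacz and sham, 10108 between IR and sham and 1574 between IRLacz and IR, with 8193 still changed, 404 returned, 13 beyond and 256 that differed from both.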
